A study of Homo sapiens with 6 samples.

Results

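Many AP-1 and EGR immediate early genes are among the first that a cell transcribes after a growth factor, stress or wounding signal. Here 10 genes of the FOS, JUN, EGR and IER families were followed in KYSE150 cells. The cells carried either a control hairpin or a hairpin against the lncRNA AC007128.1. The genes are FOS, FOSB, FOSL1, FOSL2, JUN, JUNB, JUND, EGR1, IER2 and IER3, listed by name, and they are 10 of the 67140 gene identifiers in the table. All 10 passed the filter on low counts and were among the 19254 genes tested. KYSE150 is a human cancer cell line from esophageal squamous epithelium. Stable lines were made with lentivirus and puromycin, with a single hairpin sequence (shAC007128.1) and a single control (shCtrl), and each was sequenced as poly-A RNA in 3 samples, all grown in medium with serum. The labels do not say whether the 3 samples of a line were separate cultures, so the p-values measure only the spread between these samples. With a single hairpin, an effect of AC007128.1 and any other difference between the 2 lines cannot be told apart.

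FOS and JUN proteins are basic leucine zipper (bZIP) factors that pair to form AP-1, which binds the sequence TGACTCA. JUN proteins can pair with each other, whereas FOS proteins need a JUN partner. EGR1 is a zinc finger factor of the same early response. ERK and p38 signaling reach these genes largely through SRF and its ELK partners at serum response elements and through CREB family proteins at cAMP response elements, and many of the transcripts are short-lived. In squamous epithelium AP-1 is known for its part in keratinocyte growth, differentiation and wound response. The study asked which pathways changed with AC007128.1 depletion and followed up MAPK signaling, which is known to induce these genes.

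Total counts were 65140326 to 78610457 in shCtrl and 55764405 to 60158244 in shAC007128.1 libraries, so depth was lower in every shAC007128.1 library, and levels are therefore given as CPM, the usual depth-scaled count, with library sizes adjusted by TMM. The mitochondrial share of counts was 9.69 to 10.2% in shCtrl and 7.68 to 9.72% in shAC007128.1 libraries. AC007128.1 itself had counts of 69, 33 and 53 in shCtrl and of 18, 37 and 15 in shAC007128.1, so the groups overlapped. Its log2 fold change (log2FC) was -0.77 with a standard error (SE) of 0.51 (edgeR adjusted p = 0.271). A knockdown was thus not detected in these libraries, where the gene had few counts. The study reported from a separate qPCR measurement that the hairpin lowered AC007128.1 RNA. All 8 squamous markers had counts, led by KRT5, and their summed level was 1230 to 1280 CPM in shCtrl and 1810 to 2340 CPM in shAC007128.1. SOX2 was under 1 CPM in every shCtrl library, at 0.328 to 0.59 CPM, and at 3.89 to 5.17 CPM in shAC007128.1. KRT5, KRT14, KRT6A and SOX2 were higher in every shAC007128.1 library, DSG3 was lower (196 to 207 against 87.6 to 105 CPM), and TP63, PKP1 and KRT17 overlapped between the groups. Of the leukocyte markers given here CD68 alone averaged over 1 CPM, at 58.8 to 67.3 CPM in shCtrl and 13.5 to 23.5 in shAC007128.1, while PTPRC, CD3E and LYZ reached at most 0.164, 0.929 and 0.0728 CPM. Summed fibroblast markers were at 15.1 to 16.0 and 20.8 to 23.8 CPM, mainly COL1A1, and summed endothelial markers at 2.12 to 3.11 and 0.302 to 2.02 CPM. The part of depth, mitochondrial share and these markers in the results was not tested.

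The 250 bases before the start of the 4 genes called lower, and of JUNB, which was not, are shown as a description. The RefSeq promoter table (GRCh38.p14) held 8 of the 10 genes, all but FOSL1 and IER3. Capitals mark matches, on either strand, to the CArG box bound by SRF, to TGACGTCA (the full cAMP response element) or to TATAAA (the TATA box).
EGR1 (chr5:138465229-138465478, plus strand): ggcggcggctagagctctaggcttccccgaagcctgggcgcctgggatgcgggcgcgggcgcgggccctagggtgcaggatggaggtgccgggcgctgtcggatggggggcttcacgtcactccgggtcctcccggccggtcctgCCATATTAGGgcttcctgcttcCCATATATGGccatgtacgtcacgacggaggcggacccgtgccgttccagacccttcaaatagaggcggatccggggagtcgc
FOS (chr14:75278578-75278827, plus strand): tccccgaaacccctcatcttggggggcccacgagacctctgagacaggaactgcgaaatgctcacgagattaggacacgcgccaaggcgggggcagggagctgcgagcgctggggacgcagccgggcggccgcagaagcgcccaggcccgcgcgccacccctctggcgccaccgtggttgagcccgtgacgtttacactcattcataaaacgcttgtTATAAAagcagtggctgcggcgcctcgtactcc
FOSB (chr19:45467746-45467995, plus strand): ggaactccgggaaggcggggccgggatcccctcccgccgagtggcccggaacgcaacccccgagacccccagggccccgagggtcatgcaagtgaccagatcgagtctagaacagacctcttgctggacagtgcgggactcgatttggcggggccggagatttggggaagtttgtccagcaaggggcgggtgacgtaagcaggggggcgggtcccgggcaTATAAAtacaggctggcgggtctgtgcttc
JUND (chr19:18281623-18281872, minus strand): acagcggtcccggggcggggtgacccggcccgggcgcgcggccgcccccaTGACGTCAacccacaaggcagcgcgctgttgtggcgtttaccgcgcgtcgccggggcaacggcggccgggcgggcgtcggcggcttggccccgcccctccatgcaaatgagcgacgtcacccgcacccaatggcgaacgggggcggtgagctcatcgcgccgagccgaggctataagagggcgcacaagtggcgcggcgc
JUNB (chr19:12791236-12791485, plus strand): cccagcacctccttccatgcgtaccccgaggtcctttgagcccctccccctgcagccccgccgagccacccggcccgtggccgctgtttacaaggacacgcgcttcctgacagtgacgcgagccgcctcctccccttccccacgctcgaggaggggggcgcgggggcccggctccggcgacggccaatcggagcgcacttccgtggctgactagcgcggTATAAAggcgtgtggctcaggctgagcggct

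EGR1 held 2 CArG boxes, CCATATTAGG from -105 to -96 and CCATATATGG from -83 to -74, counted from the start. A CArG box occurred in 1.16% of all 35116 promoter windows of this length, and in no other of the 8 windows. Bases further from the start were not searched, so a CArG box there would have been missed in FOS, FOSB or any other gene. JUND held TGACGTCA from -200 to -193, which 1.65% of windows hold. TATAAA stood at -33 to -28 in FOS, -30 to -25 in FOSB and -31 to -26 in JUNB, and in 10.7% of all windows. TGACTCA (4.2% of windows) and the EGR site GCGTGGGCG (0.72%) matched none of the 8, which says only that these letters are not in this window. Whether any of these motifs bears on the changes in expression was not tested.

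Compared with shCtrl, shAC007128.1 cells had less FOS, EGR1, FOSB and JUND mRNA. FOS and EGR1 were at 23.3% and 23.8% of control, FOSB at 30.3% and JUND at 49.4%. JUN also fell, to 54.8%, short of the 2-fold limit. FOSL1, FOSL2, JUNB, IER2 and IER3 did not pass the test. The call required both a 2-fold change and 0.05 or less in edgeR's quasi-likelihood test after Benjamini-Hochberg adjustment over all genes tested, which are the limits of the study. By that rule 4 of the 10 genes were called lower, where 10.1% of all genes tested were, and 0 were called higher by edgeR, where 5.57% of all genes were. The number higher at an unadjusted p under 0.05 was also 0, and DESeq2 and limma-voom also called 0 higher. Without the fold limit 5 were lower, against 19.8% of all genes, and 0 higher, against 21%. The groups did not overlap in 6 genes that were lower, against 28.2% of all genes, and in 1 that was higher, against 27%. The median log2 fold change of the 10 genes was -0.70, beside -0.02 for all genes tested. In bulk RNA, fewer cells expressing a gene and less of its RNA per cell cannot be told apart.

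**Figure D1:**
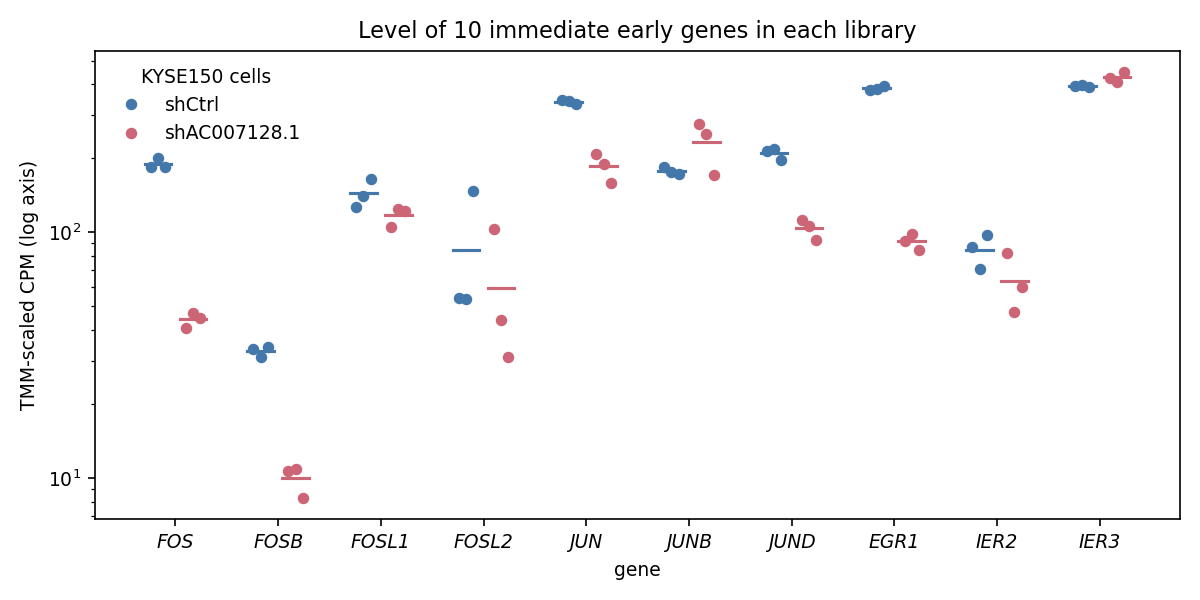
TMM-scaled CPM on a log axis for each of the 10 genes, with a point for each library (3 shCtrl, 3 shAC007128.1) and a bar at each group mean. The points of FOS, FOSB, JUN, JUND and EGR1 lie lower in every shAC007128.1 library, while those of FOSL2, JUNB and IER2 overlap between the groups.

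FOS, the founding partner of JUN in AP-1 and a typical short-lived early transcript (ENSG00000170345, hg38 chromosome 14, 75278826 to 75282230, plus strand), was at 184, 200 and 184 CPM in the shCtrl libraries. It was at 40.8, 46.8 and 44.8 CPM in the shAC007128.1 libraries. The 3 shAC007128.1 values lay close together and far below the lowest shCtrl value. This was a log2FC of -2.10 (SE 0.08, edgeR adjusted p = 1.6e-05), or 4.28-fold lower. Of all genes tested, 4.24% had a lower log2 fold change.

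FOSB (ENSG00000125740, chromosome 19, 45467995 to 45475179, plus strand) encodes the FOS paralog whose truncated form accumulates in neurons on repeated stimulation. Per kb of exon it had the lowest level of the 10, and it was at 33.4, 30.9 and 34.2 CPM in shCtrl and at 10.7, 10.9 and 8.31 CPM in shAC007128.1. Every shAC007128.1 library lay below every shCtrl library. The result was a log2FC of -1.72 (SE 0.13, edgeR adjusted p = 0.00011).

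FOSL1 (ENSG00000175592, chromosome 11, 65892049 to 65900573, minus strand) encodes FRA1, a FOS protein that lacks a strong transactivation domain and is linked to tumor invasion. Its levels were 127, 141 and 164 CPM in shCtrl and 105, 124 and 122 CPM in shAC007128.1. The groups did not overlap, but the gap between the highest shAC007128.1 and the lowest shCtrl library was small. Its log2FC came to -0.30 (SE 0.12, edgeR adjusted p = 0.0733), which missed the threshold.

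FOSL2 (ENSG00000075426, chromosome 2, 28392448 to 28417317, plus strand), which encodes FRA2, could not be placed. Its levels were 54.0, 53.4 and 147 CPM in shCtrl and 103, 43.8 and 31.0 CPM in shAC007128.1. A single library stood high in each group, shCtrl replicate 3 and shAC007128.1 replicate 1, and the groups overlapped. The fitted log2FC was -0.52 (SE 0.54, edgeR adjusted p = 0.486). Leaving out shCtrl replicate 3 gave 0.14, and leaving out shAC007128.1 replicate 1 gave -1.19 (edgeR adjusted p = 0.114). Among the 10057 genes with a mean of at least 10 CPM, 99.1% had a smaller within-group SD of log2 CPM than the 0.86 of FOSL2.

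JUN (ENSG00000177606, chromosome 1, 58776845 to 58784048, minus strand), the transactivating partner that gives AP-1 much of its strength, was at 346, 341 and 332 CPM in shCtrl. It was at 209, 190 and 159 CPM in shAC007128.1, all below the lowest control. Here the log2FC was -0.87 (SE 0.10, edgeR adjusted p = 0.000627). JUN thus passed the test without reaching 2-fold.

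JUND (ENSG00000130522, chromosome 19, 18279694 to 18281622, minus strand) encodes the JUN protein that is usually present in resting cells. Its levels were 215, 219 and 196 CPM in shCtrl and 112, 106 and 93.2 CPM in shAC007128.1, without overlap. The log2FC of -1.02 (SE 0.09, edgeR adjusted p = 0.000192) stood just past the 2-fold limit. It came to -0.99 without shCtrl replicate 2 and to -0.96 without shAC007128.1 replicate 3, so the call was lost there although the adjusted p stayed at 0.00188 and 0.000184.

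JUNB (ENSG00000171223, chromosome 19, 12791486 to 12793315, plus strand), a weaker activator that can restrain JUN, did not follow the other 2 JUN genes. Its levels were 184, 176 and 172 CPM in shCtrl and 276, 250 and 171 CPM in shAC007128.1. A pair of shAC007128.1 libraries lay above all controls, and replicate 3 lay just below them. The estimate was a log2FC of 0.39 (SE 0.17, edgeR adjusted p = 0.102). Without shAC007128.1 replicate 3 it was 0.56 (edgeR adjusted p = 0.000849), which passed the test. Of its 1830 exonic bases, 259 are shared with HOOK2 on the opposite strand, and the use of strand in counting is not given in the sources used here.

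EGR1 (ENSG00000120738, chromosome 5, 138465479 to 138469303, plus strand), the zinc finger factor with the 2 CArG boxes shown above, was at 380, 384 and 394 CPM in shCtrl. It was at 92.0, 98.6 and 84.5 CPM in shAC007128.1, far below every control library. On the log2 scale the fold change was -2.07 (SE 0.08, edgeR adjusted p = 1.6e-05), or 4.21-fold lower, and 4.39% of all genes tested had a lower value.

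IER2 and IER3 did not pass the test. IER2 (ENSG00000160888, chromosome 19, 13150411 to 13154911, plus strand), a nuclear early response protein, was at 86.8, 70.8 and 97.1 CPM in shCtrl and at 82.4, 47.2 and 59.7 CPM in shAC007128.1. The groups overlapped through shAC007128.1 replicate 1. Its log2FC was -0.43 (SE 0.21, edgeR adjusted p = 0.147), and -0.67 without that library (edgeR adjusted p = 0.0276). Of the 3079 exonic bases of IER2, 52.2% lie opposite lncRNAs on the other strand, so its count is uncertain. IER3 (ENSG00000137331, chromosome 6, 30743199 to 30744548, minus strand), an early gene linked to cell survival and a target of NF-kappaB as well as ERK, was at 395, 398 and 390 CPM in shCtrl and at 426, 409 and 449 CPM in shAC007128.1. It was the single gene of the 10 with every shAC007128.1 library above every control. The difference was small, with a log2FC of 0.12 (SE 0.06, edgeR adjusted p = 0.159), and 38.9% of its exonic bases are shared with HCG20 and IER3-AS1 on the opposite strand.

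**Figure D2:**
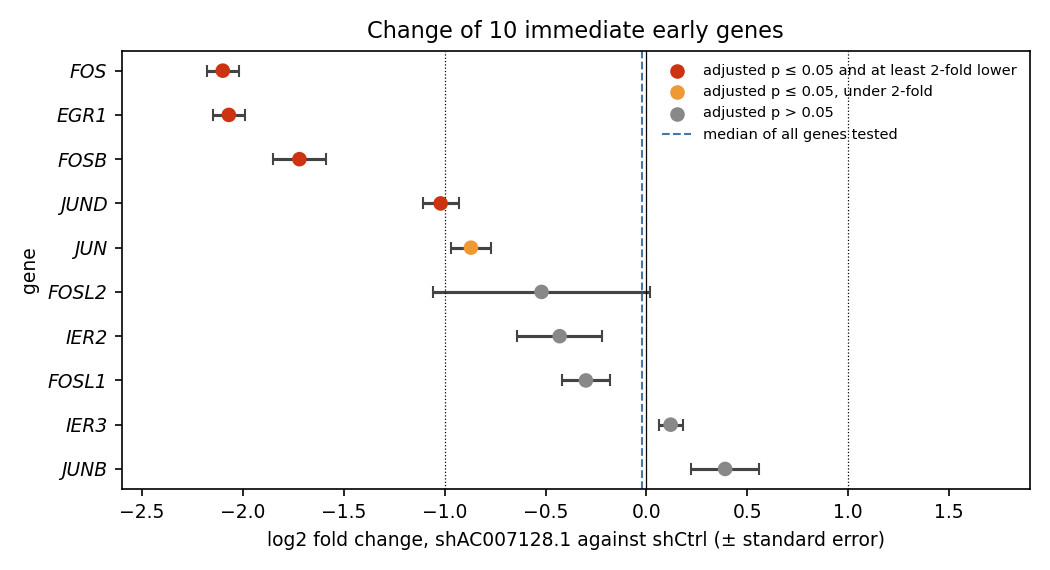
Log2 fold change of each gene, shAC007128.1 against shCtrl, with its standard error, colored by whether it passed the test with or without the 2-fold limit. Dotted lines mark 2-fold and the dashed line the median of all genes tested. FOS, EGR1, FOSB and JUND lie past 2-fold lower and JUN just short of it, and the bar of FOSL2 is the widest.

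The order of the 10 genes by level changed between the lines. Per kb of annotated exon, shCtrl cells held 292 ± 2.8 CPM per kb of IER3 (SD, n = 3), followed by EGR1 at 123 ± 2.36, JUND at 109 ± 6.27, JUNB at 97.1 ± 3.37 and JUN at 93.7 ± 2.0. FOSL1 came next at 76.4 ± 9.98 CPM per kb, then FOS at 59.4 ± 2.85, IER2 at 27.6 ± 4.31, FOSL2 at 11.8 ± 7.51 and FOSB at 5.91 ± 0.311. Of neighbours in that order, only JUNB and JUN overlapped. In shAC007128.1 cells IER3 again led at 317 ± 14.7 CPM per kb (SD, n = 3), and JUNB stood second at 127 ± 30.0. FOSL1, JUND and JUN followed at 62.0 ± 5.5, 53.8 ± 4.99 and 51.4 ± 6.95 CPM per kb, with FOSL1 overlapping JUND and JUND overlapping JUN. EGR1, at rank 2 in shCtrl, was at rank 6 with 29.2 ± 2.26 CPM per kb, followed by IER2 with 20.5 ± 5.8. FOS stood at rank 8 with 13.9 ± 0.957 CPM per kb and overlapped FOSL2 with 8.26 ± 5.33. FOSB stayed last at 1.80 ± 0.259 CPM per kb.

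The make-up of both families differed between the lines. Within a library the share of a family does not depend on how libraries are scaled. FOS held 41.7, 41.6 and 33.7% of the FOS family counts per kb in shCtrl libraries and 15.1, 16.6 and 16.6% in shAC007128.1 libraries. FOSL1 held 48.6, 49.7 and 50.8% in shCtrl and 65.7, 74.2 and 76.5% in shAC007128.1. So FOSL1 led FOS in every shCtrl library, by most in replicate 3, while in shAC007128.1 cells FOSL1 made up most of the family. In the JUN family JUNB held 31.6 to 32.8% in the 3 shCtrl libraries and 50.3 to 56.6% in the 3 shAC007128.1 libraries. JUN went from 31.3% ± 0.486 to 22.3% ± 1.23 and JUND from 36.3% ± 1.01 to 23.4% ± 2.28 (SD, n = 3 each). The groups did not overlap in any of these 5 shares. The FOS family summed to 154 ± 16.6 CPM per kb in shCtrl and 85.9 ± 2.12 in shAC007128.1 (SD, n = 3 each). The JUN family summed to 300 ± 10.6 and 232 ± 41.9 CPM per kb, or 77.4% of control. The lengths used count every annotated exon. The length of the canonical transcript was an alternative chosen after the data were seen. With it FOS led FOSL1 in the shCtrl mean, at 46.2% ± 4.74 against 43.1% ± 1.64 (SD, n = 3). In shCtrl replicate 3 FOS was behind, at 40.7% against 44.9%. The FOS share in shAC007128.1 was then 20.7%, against 67.9% for FOSL1.

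**Figure D3:**
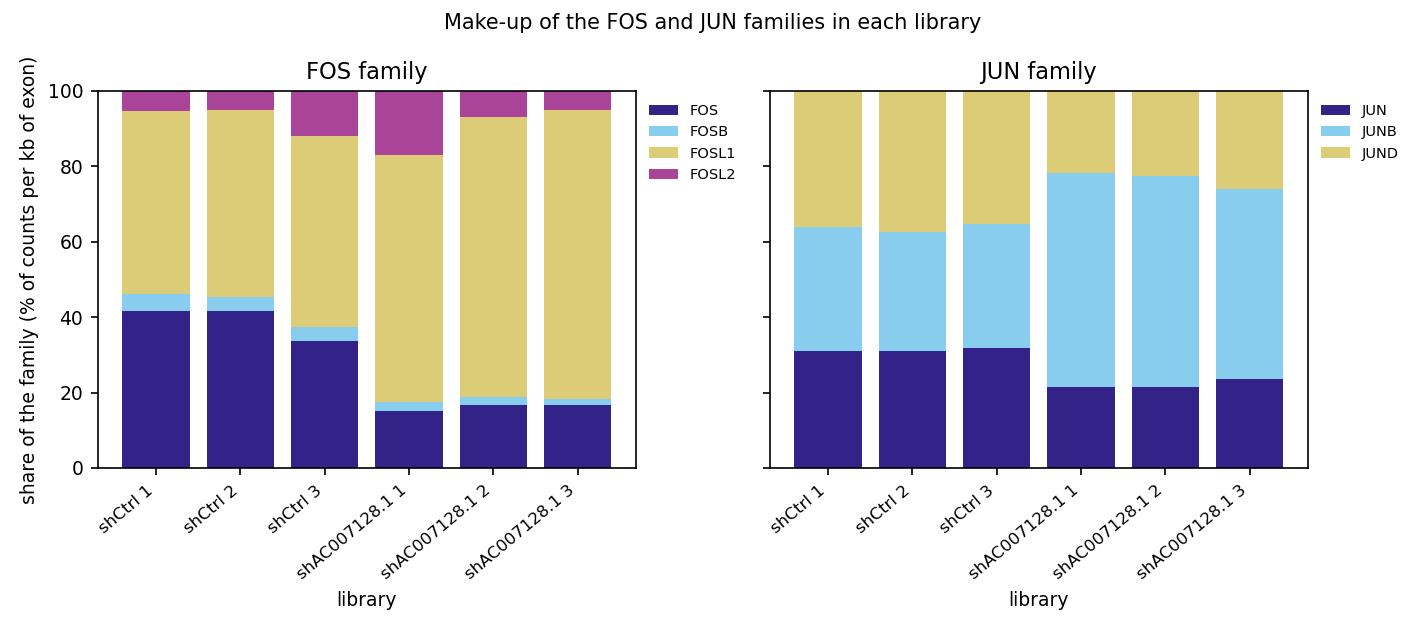
Stacked bars of the share (%) of each gene in the FOS family (left) and JUN family (right) counts per kb of exon, 1 bar for each of the 6 libraries. The FOS share is smaller and the FOSL1 share larger in all 3 shAC007128.1 libraries, and the JUNB share is larger there, at 50.3 to 56.6% against 31.6 to 32.8%.

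Whether the genes moved apart was tested on their log2 ratio in each library, for 8 pairs, by two-sided exact permutation over the 6 samples, where the smallest p that 3 against 3 allow is 0.1. The ratio of FOS to FOSL1 was -0.22, -0.26 and -0.59 in shCtrl and -2.12, -2.16 and -2.20 in shAC007128.1. That difference of -1.80 was far larger than the SDs of 0.21 and 0.04 (exact permutation p = 0.1, adjusted p = 0.16 over the 8 pairs). FOSB against FOSL1 differed by -1.43 and FOS against JUN by -1.22, each with an exact permutation p of 0.1 (adjusted p = 0.16). JUNB against JUND was -0.14, -0.24 and -0.11 in shCtrl and 1.38, 1.32 and 0.95 in shAC007128.1, a difference of 1.38 (exact permutation p = 0.1, adjusted p = 0.16). JUN against JUND differed by 0.14, with the groups just apart (exact permutation p = 0.1, adjusted p = 0.16). EGR1 against FOS differed by 0.02, less than either SD, from 1.05 ± 0.08 in shCtrl to 1.08 ± 0.13 in shAC007128.1 (SD, n = 3; exact permutation p = 0.9, adjusted p = 0.9). The difference was -0.57 for IER2 against IER3 (exact permutation p = 0.2, adjusted p = 0.267) and -0.24 for FOSL2 against FOSL1 (exact permutation p = 0.7, adjusted p = 0.8). No pair passed after adjustment, which this design cannot reach.

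The wider AP-1 and EGR network was described with 8 lists of 128 genes, of which 122 were tested. Together 21 were called lower and 8 higher, beside 10.1% and 5.57% of all genes tested. Without the fold limit 39 were lower and 29 higher, beside 19.8% and 21% of all genes, and the median log2 fold change was -0.01, so the numbers higher lay near the background. The counts of each list are to be read against the same shares. The other EGR genes were low in abundance. EGR3, which acts in muscle spindles and lymphocytes, had counts of 64, 124 and 120 in shCtrl and of 25, 20 and 35 in shAC007128.1 (log2FC -1.56, SE 0.37, edgeR adjusted p = 0.0127). EGR2, known from myelinating Schwann cells, had 96, 59 and 99 against 2, 15 and 21 (log2FC -2.37, SE 0.68, edgeR adjusted p = 0.0269). EGR4 had 65, 38 and 24 counts in shCtrl and 0 in every shAC007128.1 library, at least 10.7-fold lower when 3 counts per library are taken as the floor, which covers counting error only. These were 3 genes called lower of 5 tested in the list of other EGR genes and NAB corepressors, beside 10.1% of all genes. The number was 1 with at least 10 counts required in every sample, a filter that removes EGR2 and EGR4 before any test. It was also 1 without shCtrl replicate 3. The remaining members, named after their values were seen, were NAB1 and NAB2, corepressors that EGR1 binds, with log2FC of 0.47 (edgeR adjusted p = 0.0431) and -0.11 (edgeR adjusted p = 0.571).

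Of 13 tested bZIP genes that can pair with FOS or JUN proteins, 4 were called lower and 0 higher, beside 10.1% and 5.57% of all genes, with a median log2 fold change of -0.18. JDP2, a repressor that dimerizes with JUN, went from 21.3 ± 1.27 to 7.05 ± 0.431 CPM (SD, n = 3), with a log2FC of -1.60 (SE 0.11, edgeR adjusted p = 8.28e-05). ATF3, a stress-induced JUN partner, went from 79.6 ± 13.9 to 31.3 ± 9.45 CPM (log2FC -1.35, SE 0.23, edgeR adjusted p = 0.0033). MAFF, a small MAF protein, had a log2FC of -1.54 (SE 0.35, edgeR adjusted p = 0.0111). Its controls scattered, at 76.2, 28.6 and 76.8 CPM in shCtrl against 23.5, 19.2 and 19.7 CPM in shAC007128.1. The remaining call was BATF2, at a mean of 1.85 CPM in shCtrl and 0.128 in shAC007128.1, named after its values were seen. Over the list, 5 of 13 genes, these 4 among them, had every shAC007128.1 library below every shCtrl library, beside 28.2% of all genes. In 1 gene every shAC007128.1 library lay above, beside 27% of all genes.

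Among 35 tested genes of other immediate early genes, 9 were called lower and 2 higher, beside 10.1% and 5.57% of all genes, with a median of -0.27. CEBPB, a bZIP factor of inflammation and differentiation, went from 375 ± 7.28 to 85.7 ± 11.8 CPM (SD, n = 3), with log2FC -2.13. DUSP1, the phosphatase that switches off p38, JNK and ERK, went from 92.9 ± 2.11 to 24.1 ± 2.54 CPM, with log2FC -1.95. CCN2, a matrix-associated signaling protein, went from 66.3 ± 2.34 to 24.7 ± 1.12 CPM, with log2FC -1.43. The 2 genes called higher were KLF10, an early target of TGF-beta, from 15.9 ± 0.237 to 53.3 ± 6.27 CPM, and SOCS3, the feedback inhibitor of cytokine receptors, from 25.7 ± 3.5 to 68.8 ± 14.8 CPM. Without the fold limit 16 genes were lower, beside 19.8% of all genes, and 6 were higher, beside 21%, so the number higher did not exceed the background. ATF3 belongs to both this list and the bZIP list.

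**Figure D4:**
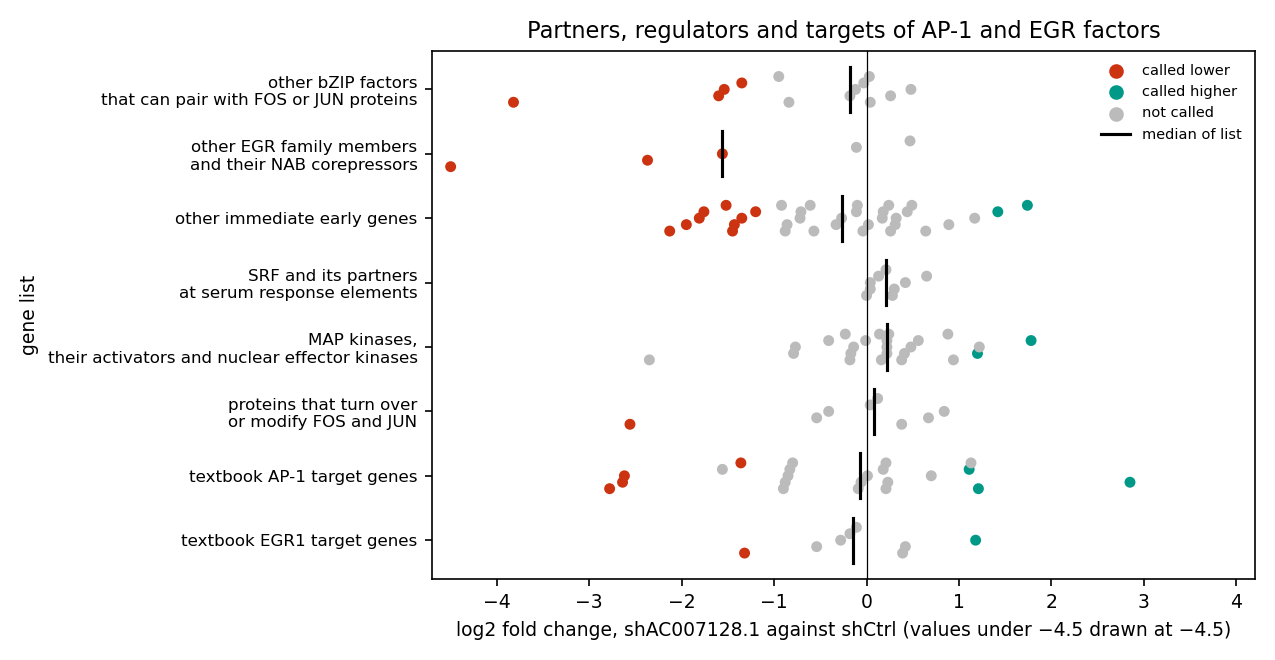
Log2 fold change of each tested gene in 8 lists of partners, regulators and targets, with called genes in red (lower) or green (higher), uncalled genes in gray, and a bar at each list's median. The bZIP and EGR lists hold calls in the lower direction alone, the list of SRF and its partners holds no call, and the target lists hold calls in both directions. EGR4, with no counts in shAC007128.1, is drawn at the left edge.

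The lists of genes upstream of this response are small, and their calls are to be read beside 10.1% lower and 5.57% higher of all genes. Of 9 genes for SRF and its partners, edgeR called 0, as did DESeq2 and limma-voom, and the median log2FC was 0.21. At an unadjusted p under 0.05, 2 were higher and 0 lower. CREBBP and ELK1 passed after adjustment without the fold limit, both higher, as did 21% of all genes. Values of ELK1 and SRF were picked after they were seen. ELK1, the SRF partner that ERK phosphorylates, had a log2FC of 0.65 (SE 0.13, edgeR adjusted p = 0.00647), and SRF itself had 0.21 (SE 0.12, edgeR adjusted p = 0.215). Of 24 MAP kinases, activators and effector kinases, 2 were called higher and 0 lower by edgeR, beside 5.57% and 10.1% of all genes, with a median of 0.22. At an unadjusted p under 0.05, 10 were higher and 4 lower. After adjustment and without the fold limit 9 were higher and 3 lower, beside 21% and 19.8% of all genes. Without shAC007128.1 replicate 1 the number called higher was 4, and limma-voom, or edgeR without shCtrl replicate 1, called 1 lower. MAP2K4, which activates JNK, went from 39.7 ± 5.03 to 91.5 ± 15.4 CPM (SD, n = 3, log2FC 1.20, SE 0.15, edgeR adjusted p = 0.000706). MAP2K6, which activates p38, went from 2.07 ± 0.516 to 7.12 ± 3.44 CPM (log2FC 1.78, SE 0.40, edgeR adjusted p = 0.0104). MAP2K3, a more abundant p38 activator chosen after its values were seen, went the other way. It fell from 98.0 ± 5.17 to 57.5 ± 4.95 CPM, short of 2-fold (log2FC -0.77, SE 0.09, edgeR adjusted p = 0.000643). These are mRNA levels, and phosphorylation was not measured in these libraries. The study reported, from a separate measurement in KYSE150 cells, less phosphorylated ERK and p38 after AC007128.1 depletion. How the mRNA levels relate to that decrease was not tested. Of 8 genes for proteins that turn over or modify FOS and JUN, 1 was called lower, beside 10.1% of all genes. It was DET1, a partner of the COP1 ubiquitin ligase that acts on JUN, from 4.27 ± 0.178 to 0.721 ± 0.649 CPM (log2FC -2.56, SE 0.57, edgeR adjusted p = 0.0102).

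Of 22 textbook AP-1 targets tested, 4 were called lower and 3 higher, beside 10.1% and 5.57% of all genes, with a median log2 fold change of -0.08. Without the fold limit 8 were lower and 5 higher, beside 19.8% and 21% of all genes, so the number higher lay near the background. The lower genes included the cytokines IL1B, from 209 ± 2.13 to 34.0 ± 1.9 CPM, and IL6, from 28.7 ± 0.821 to 4.62 ± 0.238 CPM (SD, n = 3). HMOX1, which encodes heme oxygenase and also answers to NRF2, went from 66.1 ± 3.67 to 9.64 ± 1.85 CPM. The higher genes were the collagenases MMP13, from 0.701 ± 0.109 to 5.07 ± 0.284 CPM, and MMP1, from 0.943 ± 0.177 to 2.18 ± 0.285 CPM, and the urokinase receptor gene PLAUR, from 31.4 ± 3.69 to 67.9 ± 13.2 CPM. Both collagenase genes stayed under 10 CPM in either line. Of 8 EGR1 targets, 1 was called lower and 1 higher, beside 10.1% and 5.57% of all genes, and 3 were lower and 3 higher without the fold limit, beside 19.8% and 21%. F3, which encodes tissue factor, went from 628 ± 2.78 to 252 ± 16.1 CPM (log2FC -1.32, SE 0.07, edgeR adjusted p = 2.95e-05), and CDK5R1, an activator of CDK5, from 4.94 ± 0.634 to 11.2 ± 0.62 CPM (log2FC 1.18, SE 0.15, edgeR adjusted p = 0.0008).

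**Figure D5:**
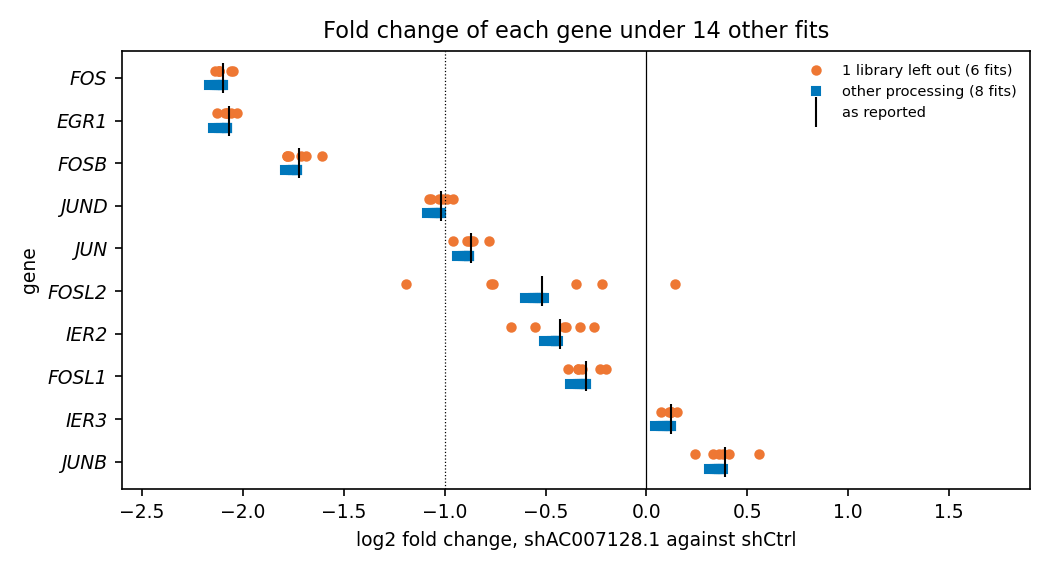
Log2 fold change of each of the 10 genes as reported (black bar), with each of the 6 libraries left out in turn (orange) and under 8 other ways of processing (blue). FOS, EGR1 and FOSB stay past 2-fold lower in all of these fits, JUND crosses the dotted 2-fold line, and FOSL2 runs from -1.19 to 0.14.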

How the data were processed

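The deposited table holds 1 column for each of the 6 samples, with estimated counts per Ensembl gene that the authors wrote as whole numbers without normalization. Before counting, the authors cleaned reads of rRNA, adapters and poor quality, with alignment to hg38 by TopHat (the submitters' processing notes give TopHat2 2.0.6, and the methods give another version). The counting program, annotation release and strand setting are not given in the sources used here. Many small counts were multiples of 4, and dividing all counts by 4 was therefore an alternative. Columns were matched to samples by the labels, and 0 were left out. The treatment label names shAC007128.1 for all 6 samples, so groups follow the sample descriptions and titles.

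Symbols, positions and exon lengths came from GENCODE v44, which held 89.9% of the identifiers. After filterByExpr and TMM scaling, glmQLFit and glmQLFTest of edgeR 4.0.16 (R 4.3.3) gave each test, and standard errors are the log2 fold change over the root of F. On simulated counts for this comparison (18634 genes), edgeR called 98.4% of genes changed by 3 on the log2 scale, 73.8% at 2 and 63.5% at 1.5. The changed genes were drawn at random from all genes tested, whatever their level. These shares are therefore not rates for the 10 early genes. Alternatives were DESeq2 1.42.0, limma-voom (limma 3.58.1), other scaling and filters, a replicate block and leaving out each library. Genes named are the 10 early genes and, in each list, up to 3 called genes with the smallest p in each direction. Exceptions are said to be such or are partners needed for a comparison. The genes and lists were chosen with earlier results of these data known. Values of some listed genes are not reported here.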

Additional observations from a re-analysis of the deposited data

How the results depend on the processing

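Of 140 log2 fold changes of the 10 genes under 14 other fits, 137 kept their direction and call. The exceptions were JUND without shCtrl replicate 2 or shAC007128.1 replicate 3 (-0.99 and -0.96, both short of 2-fold) and FOSL2, which ran from -1.19 to 0.14 with a library left out. FOSL1 passed the test without the fold limit under the replicate block, with library size only and with at least 10 counts in every sample, at edgeR adjusted p of 0.048, 0.0444 and 0.0474, over a range of 0.0444 to 0.222. The number called lower, 4, was 3 to 4 with a library left out and 5 without the fold limit. Genes higher without the fold limit, 0, were 0 to 1, the 1 being JUNB without shAC007128.1 replicate 3. With no fold limit 4041 genes were called higher and 3820 lower in place of 1073 and 1945, and leaving out a library gave 970 to 1068 and 1586 to 2023.

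With the replicate number as a block, 4 of the 10 genes were still called lower, and 977 genes were higher and 1692 lower. Same-numbered samples deviated from their group means with correlations of 0.031, -0.025 and -0.03, so no pairing by number was detected. Whether same-numbered samples were handled together is not known from this. With a library left out the ratio difference of FOSL2 to FOSL1 ran from -0.80 to 0.17 and that of EGR1 to FOS from -0.04 to 0.09. The other 6 ratios kept their sign. Of 224 counts per list under these fits, 219 stayed within 1.5 times. The median log2 fold change of all genes, -0.02, was -0.13 with DESeq2 and -0.15 without a filter. The cause of these changes was not tested. Counting error weighed little on the 10 genes, whose lowest count in a library was 483 (FOSB), and more on EGR2, EGR3 and EGR4. The planned comparison of protein sequences was not run.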

Other observations

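FOSL2 was not alone in its scatter, but few genes shared it. Among the 10057 genes with a mean of at least 10 CPM, 26 were over 2 times higher in shCtrl replicate 3 than in both other shCtrl libraries, FOSL2 among them. In shAC007128.1 replicate 1 the number was 32, again with FOSL2. The other 4 libraries had 23 to 39 such genes, so neither library stood apart in this count. The squamous factor TP63, chosen after its values were seen, showed a like pattern in the control line, at 96.0, 99.6 and 182 CPM in shCtrl replicates 1, 2 and 3 and at 99.9, 102 and 111 CPM in shAC007128.1.

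Further early genes passed the test short of 2-fold, and all were chosen after their values were seen. PHLDA1, an ERK-responsive gene, went from 493 to 260 CPM (log2FC -0.92, SE 0.06, edgeR adjusted p = 4.89e-05). KLF4, a factor of epithelial differentiation, went from 65.6 to 35.5 CPM (log2FC -0.88, SE 0.09, edgeR adjusted p = 0.000274). ZFP36L2, whose protein speeds decay of AU-rich mRNAs, went the other way, from 82.1 to 152 CPM (log2FC 0.89, SE 0.07, edgeR adjusted p = 0.000124).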
